A study of Mus musculus with 11 samples.

Results

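The assembled transcriptome of gonadal white adipose tissue held 783 unnamed loci that were at least 600 bp long and reached at least 1 FPKM in wild-type (WT) or 14-3-3ζ-knockout (14-3-3ζKO) tissue. They were chosen from 42815 loci, of which 5981 carried no gene name, by the length of their interval and by the larger of the WT and 14-3-3ζKO group values. FPKM is a count of sequenced fragments corrected for the length of the transcript and for how many fragments were mapped in all. Because the group values chose the loci, every group value and every difference between group values below is a description without a test. The tissue came from male C57Bl/6 mice of 50 weeks, with 6 WT and 5 14-3-3ζKO libraries, and the 14-3-3ζKO mice lacked the adaptor protein encoded by Ywhaz in all their cells. The labels give standard rodent chow and the study a low-fat diet for this tissue, and which of them applied is not settled here. The study used littermates as controls, and the labels number the libraries without naming an animal for each, so p-values measure the spread between these libraries. Each group had 1 value per locus, and values per library were available for 5 of the 783 loci.

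An assembler joins aligned reads into transcripts and gives each group of overlapping transcripts a locus. A locus stays unnamed when its transcripts match no gene in the annotation supplied to the assembler. Such loci are known to include long non-coding RNAs, transcripts that leave a promoter in the opposite direction to the gene, continuations of a gene past its annotated end, and transcribed copies of interspersed repeats. RNA of a repeat is spread over many near-identical copies in the genome, so a read from it can align to several places. White fat holds adipocytes, which store lipid, beside macrophages, endothelial cells and other cells, and the gonadal depot of a male lies against the epididymis and testis.

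The sequences that the results turn on came from the genome build of the files, NCBIM37, and all are given 5′ to 3′ on the plus strand of that build, since the strand of the transcripts was not recorded by the library kit. The first set shows a sequence shared by 3 of the 5 loci with values per library. A 120-base stretch of XLOC_010443 (chr13:55286088-55286207) recurred in XLOC_013690 (chr15:82198120-82198239) and in XLOC_022771 (chr2:85863464-85863583), and capitals mark the bases that differ from XLOC_010443.
XLOC_010443: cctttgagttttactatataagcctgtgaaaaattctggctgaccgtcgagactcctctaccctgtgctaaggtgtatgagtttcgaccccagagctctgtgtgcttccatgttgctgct
XLOC_013690: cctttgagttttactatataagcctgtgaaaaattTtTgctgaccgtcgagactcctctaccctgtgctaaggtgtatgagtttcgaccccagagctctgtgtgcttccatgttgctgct
XLOC_022771: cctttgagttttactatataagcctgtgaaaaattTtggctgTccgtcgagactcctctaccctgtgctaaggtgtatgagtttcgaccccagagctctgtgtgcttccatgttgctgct
Each of the other loci differed from XLOC_010443 at 2 of the 120 bases. The stretch was picked for its few differences, so the loci as a whole are less alike. The longest match to XLOC_010443 was 1838 bases at 97.1% identity in XLOC_013690 and 1071 bases at 93.9% in XLOC_022771. Matches covered 93.4% of XLOC_013690 and 48.7% of XLOC_022771.

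The second set belongs to the loci with the highest values. The last 100 bases of XLOC_005387 (chr11:101959275-101959374) are shown because they hold AATAAA, the signal for cleavage and polyadenylation, in capitals.
XLOC_005387: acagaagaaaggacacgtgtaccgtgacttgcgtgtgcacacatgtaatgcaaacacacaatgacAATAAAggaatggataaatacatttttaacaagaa
A 100-base stretch of XLOC_032275 (chr6:3151456-3151555) is set beside its copy on chromosome 17 (chr17:39984312-39984411), which lies in the interval of the named locus AY036118. Capitals mark the 6 bases of the copy that differ. The stretch was picked to show differences, with 6 as the most allowed, and the whole match of 834 bases was 98.3% identical.
XLOC_032275: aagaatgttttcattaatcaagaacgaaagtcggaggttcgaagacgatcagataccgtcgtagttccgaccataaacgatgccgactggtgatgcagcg
AY036118 copy: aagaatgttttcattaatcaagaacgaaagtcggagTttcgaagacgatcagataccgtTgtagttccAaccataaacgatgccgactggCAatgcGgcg

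The third set shows where unnamed transcription met a known start. The last 150 bases of XLOC_014977 (chr16:35154728-35154877) ended 85 bp before the annotated start of Adcy5, and capitals mark each CG.
XLOC_014977: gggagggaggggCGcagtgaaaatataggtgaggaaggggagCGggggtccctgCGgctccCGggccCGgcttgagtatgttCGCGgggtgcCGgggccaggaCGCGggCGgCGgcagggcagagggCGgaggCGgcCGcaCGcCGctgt
The 120 bases around the start of XLOC_040533 (chrX:58541309-58541428) matched the RefSeq promoter of Gm4988, a predicted gene that the annotation of this build does not name there, and the capital marks the base at which RefSeq places the start.
XLOC_040533: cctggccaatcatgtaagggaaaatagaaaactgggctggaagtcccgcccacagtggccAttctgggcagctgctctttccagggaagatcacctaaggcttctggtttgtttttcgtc

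Ywhaz, the deleted gene, lay between 94.2 and 118 FPKM in the WT libraries and between 14.5 and 38.2 FPKM in the 14-3-3ζKO libraries. All 6 adipocyte markers listed were present but did not move together: Adipoq read 1474 FPKM in WT and 1607 FPKM in 14-3-3ζKO tissue, Fabp4 13823 and 31136 FPKM, and Lep 579 and 278 FPKM, and their sum was 17275 and 35263 FPKM. Markers of other cell types differed between the groups. The summed group value of 6 macrophage markers was 834 FPKM in WT and 108.5 FPKM in 14-3-3ζKO tissue, and that of 5 epididymal markers was 5998 and 3007 FPKM. In the other direction, 5 spermatid markers summed to 63.8 and 585 FPKM, 4 red cell markers to 1167 and 3891 FPKM, 4 B cell markers to 1385 and 3520 FPKM, and 4 mesothelial markers to 47.4 and 124 FPKM. Within the WT group, replicates 1, 3 and 4 held more macrophage RNA, with Cd68 between 461 and 499 FPKM against 41.8 to 84.9 FPKM in the other 3. No listed marker was at 0 in both groups, and fewer cells of a type and less RNA per cell cannot be told apart in these bulk samples. The part of these cell types in the differences of the unnamed loci was not tested.

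Of the 783 loci, 548 had an interval of their own and 235 shared the identical interval with other rows, 122 of them with at least 1 named row. For a shared interval the coordinates are those of the whole bundle of overlapping transcripts, so the length is not that of the unnamed transcript. Accordingly, the longest interval, 1223041 bp on chromosome 17, was that of XLOC_016715 together with Park2, the ubiquitin ligase parkin. XLOC_008803 shared 780122 bp with Hdac9, a histone deacetylase, and XLOC_005928 shared 591008 bp with Slit3, a guidance ligand. Loci with an interval of their own ran from 603 to 158128 bp, with a median of 2359 bp. Statements on sequence and position below concern the 548 unless said otherwise.

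Most of the loci were weakly expressed. The higher group value was under 2 FPKM in 447 loci, 2 to 10 FPKM in 298 and at least 10 FPKM in 38, and it exceeded 100 FPKM only in XLOC_005387 and XLOC_032275. WT tissue was listed at 0 FPKM for 14 loci and 14-3-3ζKO tissue for none. Just inside the length limit lay XLOC_010469 (603 bp, 0.444 FPKM in WT and 1.62 FPKM in 14-3-3ζKO tissue), and just outside it XLOC_039464 (595 bp, 0.201 and 1.70 FPKM). The lowest locus kept was XLOC_032426, at 1.0005 FPKM in WT and 0.176 FPKM in 14-3-3ζKO tissue, and the highest locus left out was XLOC_029521, at 0.902 and 0.9997 FPKM.

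The libraries could be compared one by one for 5 loci: XLOC_010443, XLOC_013690, XLOC_014977, XLOC_022771 and XLOC_024656. These are the unnamed loci of at least 600 bp that the authors' own test had marked as different on the same libraries, so the p-values below are not independent evidence of a difference. XLOC_024656 passed the limit of 1 FPKM only through the 14-3-3ζKO group, so its values are given as a description with no test, while the other 4 reached that limit in both groups. When libraries were permuted between the groups (exact test on mean log2(FPKM + 1), two-sided, Benjamini-Hochberg adjustment over all 86 rows of the per-library table), 3 of these 4 were higher in 14-3-3ζKO tissue at an adjusted p under 0.05. Across the table, 17.4% of the rows were called higher in this way and 65.1% were called in either direction.

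XLOC_010443 lies on chromosome 13 from 55285808 to 55290601, with Fgfr4, a fibroblast growth factor receptor, as the nearest gene 15687 bp away. Its WT libraries read 3.07, 11.6, 7.45, 32.5, 6.05 and 7.57 FPKM, and its 14-3-3ζKO libraries 148, 47.7, 55.1, 24.2 and 73.1 FPKM. Except for WT replicate 4, every WT library lay below every 14-3-3ζKO library. The means were 11.4 ± 10.7 (SD, n = 6) and 69.6 ± 47.2 FPKM (SD, n = 5), a difference of 2.61 on the log2(FPKM + 1) scale (exact permutation p = 0.00649, adjusted p = 0.0399).

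XLOC_013690 lies on chromosome 15 from 82194765 to 82198432, 2525 bp past the annotated end of Cyp2d22, a cytochrome P450. The WT libraries read 5.53, 5.79, 10.1, 20.9, 10.04 and 2.09 FPKM, against 174, 45.4, 12.9, 29.3 and 41.1 FPKM in 14-3-3ζKO tissue. WT replicate 4 again stood highest of its group and overlapped the lowest 14-3-3ζKO library. The difference was 2.34 on the log2(FPKM + 1) scale (exact permutation p = 0.00649, adjusted p = 0.0399). The neighbouring row that holds Cyp2d22 had group values of 11.4 FPKM in WT and 37.6 FPKM in 14-3-3ζKO tissue.

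XLOC_022771 lies on chromosome 2 from 85860462 to 85864512, among olfactory receptor genes, 10409 bp from Olfr1033. Its WT libraries held 1.86, 5.30, 4.79, 8.53, 3.87 and 2.67 FPKM, and its 14-3-3ζKO libraries 22.2, 18.9, 15.2, 7.36 and 24.4 FPKM. The only overlap was between WT replicate 4, the highest of its group, and 14-3-3ζKO replicate 4, the lowest. The difference was 1.77 on the same scale (exact permutation p = 0.00649, adjusted p = 0.0399).

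XLOC_024656 lies on chromosome 3 from 21854805 to 21859309, 116264 bp before the start of Tbl1xr1, a subunit of corepressor complexes. In WT tissue it read 0.115, 0.0408, 0.169, 0.416, 0.327 and 0.0163 FPKM, and in 14-3-3ζKO tissue 71.1, 1.84, 0.512, 1.55 and 3.24 FPKM. The groups did not overlap, which held for 3.49% of the 86 rows in this direction. The difference was 2.11 on the log2(FPKM + 1) scale. Replicate 1 alone held 90.9% of the 14-3-3ζKO sum, and without it the 14-3-3ζKO mean came to 1.78 ± 1.13 FPKM (SD, n = 4), while the WT mean was 0.181 ± 0.160 FPKM (SD, n = 6).

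XLOC_014977 lies on chromosome 16 from 35152245 to 35154877, next to the CpG-rich start of Adcy5, an adenylyl cyclase. The WT libraries read 2.04, 1.13, 1.49, 1.34, 2.33 and 0.605 FPKM, and the 14-3-3ζKO libraries 73.4, 0.929, 0.381, 1.90 and 1.65 FPKM. Only 14-3-3ζKO replicate 1 stood above the WT range. The groups did not differ by the permutation test (difference 0.84 on the log2(FPKM + 1) scale, exact permutation p = 0.610, adjusted p = 0.610), and without replicate 1 the 14-3-3ζKO libraries averaged 1.21 ± 0.692 FPKM (SD, n = 4) and the WT libraries 1.49 ± 0.623 FPKM (SD, n = 6). The direction therefore turned when this library was left out, to a difference of -0.19.

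14-3-3ζKO replicate 1 was the highest 14-3-3ζKO library at 4 of the 5 loci, compared with 15 of the 86 rows of the table (17.4%). Slc4a1, the anion exchanger of the red cell membrane, was likewise at 20.8 FPKM in this library and at no more than 0.526 FPKM in the other 10. Whether red cells or other cells in this sample bear on XLOC_024656 and XLOC_014977 was not tested. The 3 calls were lost when single libraries were left out: by the exact permutation test the adjusted p was 0.0738 for each of XLOC_010443, XLOC_013690 and XLOC_022771 without replicate 1, 0.0594 without replicate 2, 0.0585 without replicate 4 and 0.0709 without replicate 5. Without 14-3-3ζKO replicate 3, XLOC_010443 and XLOC_022771 were not called (exact permutation, adjusted p = 0.0683 and 0.0630), and without WT replicate 1 none of the 3 was (adjusted p = 0.0506). Without WT replicates 1, 3 and 4, the differences of the 3 loci were 2.71, 2.80 and 1.85, and none was called (adjusted p from 0.118 to 0.181, exact permutation of 3 against 5 libraries). Their difference stayed positive in each of these settings.

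**Figure D1:**
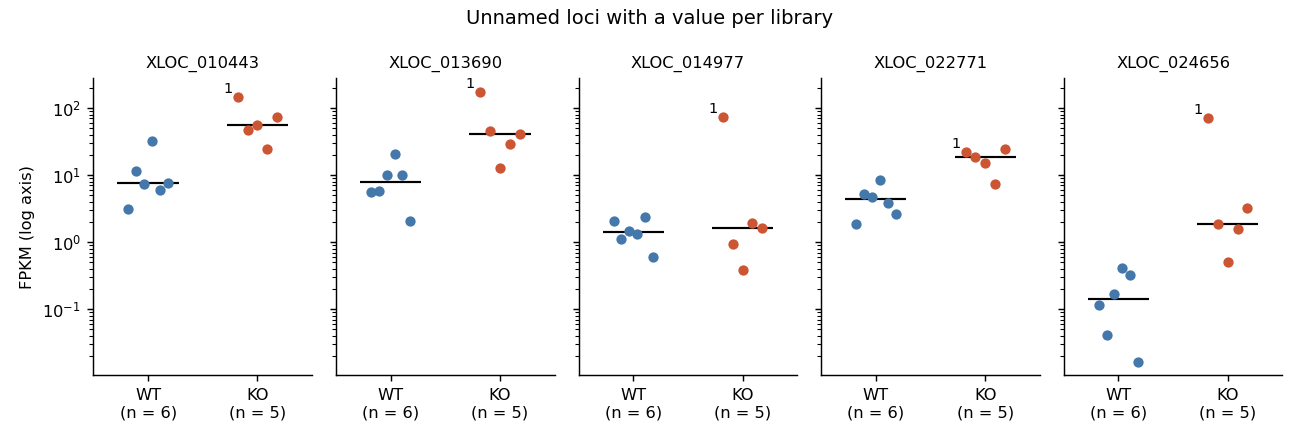
FPKM in each library (log axis) of the 5 unnamed loci with values per library, for WT (blue, n = 6) and 14-3-3ζKO (KO, red, n = 5). Bars mark medians and the digit 1 marks KO replicate 1, which lies at 73.4 FPKM in XLOC_014977 and at 71.1 FPKM in XLOC_024656, far above the other KO libraries.

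The strongest of these loci shared a sequence. Alignment of XLOC_010443 with the 548 loci found 24, itself included, that matched it over at least 500 bases at 90% identity or more. They made up 4.38% of the 548, against 3 of 3655 (0.0821%) unnamed loci of the same minimum length that stayed under 1 FPKM. XLOC_010443 was itself an expressed locus, and reads placed on several copies can bring them past 1 FPKM together. This contrast is therefore a description. Across the genome, XLOC_010443 had 411 matches of at least 500 bases, 48 of them at least 1000 bases long at 95% identity or more. The first and the last 558 bases of XLOC_010443 were a direct repeat of each other at 99.8% identity that began at its first base and ended at its last. XLOC_008772 had the same layout, with a 526-base repeat at 99.0% identity that also reached both ends. A direct repeat of at least 200 bases was found in only 5 of the 24 loci. In XLOC_018937, XLOC_022742 and XLOC_018933 it did not reach both ends, and XLOC_013690 and XLOC_022771 had none. A direct repeat at both ends is the general layout of long terminal repeat elements, and because no repeat annotation was used, the element is not named here.

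The 24 loci lay on 14 chromosomes, 17 of them farther than 5 kb from any annotated gene. XLOC_018937 on chromosome 19, the highest by the mean of the groups, read 33.7 FPKM in WT and 53.9 FPKM in 14-3-3ζKO tissue. XLOC_022742 on chromosome 2 read 18.3 and 32.9 FPKM, and XLOC_012238 on chromosome 14 read 9.68 and 32.8 FPKM. Weaker copies included XLOC_037603 on chromosome 8 (2.97 and 11.6 FPKM) and XLOC_027904 on chromosome 4 (2.54 and 9.05 FPKM). Group values were higher in 14-3-3ζKO tissue at 20 of the 24. On the log2(FPKM + 1) scale, 11 were at least 2-fold higher and none at least 2-fold lower, with a median difference of 0.87. Among all loci with at least 1 FPKM, 54.5% were higher and 10.5% at least 2-fold higher. The set was found from XLOC_010443, itself called higher, and holds all 3 called loci. Some of it passed 1 FPKM only through 14-3-3ζKO tissue, such as XLOC_008772 at 0.300 and 1.80 FPKM, so these counts are a description. XLOC_035825 on chromosome 7 ran the other way, at 1.76 and 0.407 FPKM, a difference of -0.97 on that scale. Among the other 524 loci the median difference was 0.31, with 101 at least 2-fold higher. Summed over the 24, the values were 121 FPKM in WT and 340 FPKM in 14-3-3ζKO tissue. Since a read from such a sequence can align to several copies, the 24 values are not 24 separate measurements, and how the aligner's multiple placements were weighted is not stated in the methods or labels.

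**Figure D2:**
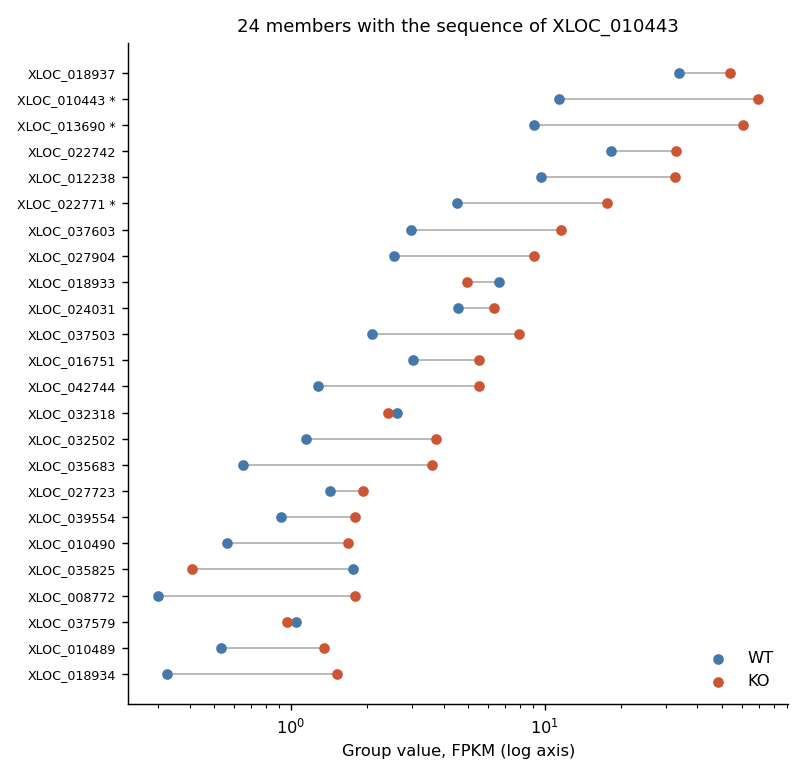
Group value in FPKM (log axis) of WT (blue) and 14-3-3ζKO (KO, red) tissue for the 24 loci that hold the sequence of XLOC_010443, itself included, ordered by the mean of the groups. Asterisks mark the 3 loci with values per library, and the KO point lies to the right of the WT point at 20 of the 24 loci.

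Over all 783 loci, group values were at least 2-fold higher in 14-3-3ζKO tissue at 168 (21.5%) and at least 2-fold lower at 18 (2.30%) on the log2(FPKM + 1) scale. Across all 16266 loci with at least 1 FPKM, the shares were 10.5% and 4.19%, and among the 15112 named loci of that level they were 8.61% and 4.31%. The median log2 difference was 0.34 for the unnamed loci, 0.05 for all expressed loci and 0.03 for the named ones. Higher loci also outnumbered lower ones among those with an interval of their own (112 higher and 13 lower, of 548) and in each position beside a gene. The counts depend on the pseudocount, which holds down differences near 1 FPKM. With a pseudocount of 0.1, 310 loci (39.6%) were at least 2-fold higher and 64 (8.17%) lower, against 15.3% and 6.35% of all expressed loci, so that the share of lower loci, below that of all loci with a pseudocount of 1, was then above it. Among the 122 that shared an interval with a named row, 41 were at least 2-fold higher and 1 lower, while the strongest named row of the same interval, where it reached 1 FPKM, was at least 2-fold higher in 8 of 118 and had a median difference of -0.01. These counts rest on 1 value per group, and a single library can set such a value, since the group value equalled the mean over libraries in 85 of the 86 rows where both were held (tolerance 0.0001, relative and absolute).

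**Figure D3:**
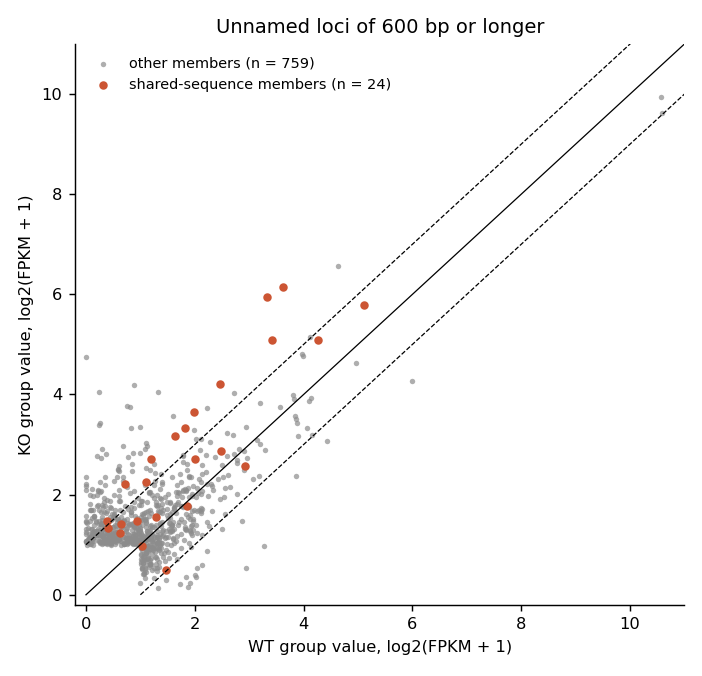
WT against 14-3-3ζKO (KO) group values on the log2(FPKM + 1) scale for the 783 unnamed loci, with the 24 shared-sequence loci in red. The solid line marks equal values and the dashed lines mark 2-fold; 168 loci lie on or above the upper dashed line and 18 on or below the lower one.

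The difference was related to length. Of the 109 loci of 600 to 1000 bp, 32 (29.4%) were at least 2-fold higher in 14-3-3ζKO tissue and none was lower, with a median difference of 0.70. The share was 25.9% of 139 loci at 1000 to 2000 bp, 19.6% of 138 at 2000 to 5000 bp, 10.8% of 120 at 5000 to 20000 bp and 9.52% of 42 at 20000 bp or more, where the median was -0.10. Named loci with an interval of their own and at least 1 FPKM also had larger shares at short lengths, at 27.9% of 86, 28.9% of 201, 13.3% of 795, 9.18% of 2777 and 6.32% of 3749. With a pseudocount of 0.1 the share still fell with length, from 59.6% to 16.7% of the unnamed loci and from 36.05% to 9.71% of the named ones. Unnamed loci under 600 bp with at least 1 FPKM stood highest, with 246 of 371 (66.3%) at least 2-fold higher. A short transcript carries fewer fragments at the same FPKM, but length here is the span of the locus, including any introns. Counts of fragments were not used, so the share of this pattern that sampling could give was not tested. By the higher group value, the share of the 783 was 13.9% at 1 to 2 FPKM, 28.2% at 2 to 5 FPKM and 39.8% from 5 FPKM. For named loci it was 10.4%, 15.2% and 6.51%. With a pseudocount of 0.1 the shares were 39.8%, 37.8% and 42.9%, against 28.4%, 21.2% and 7.28%.

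**Figure D4:**
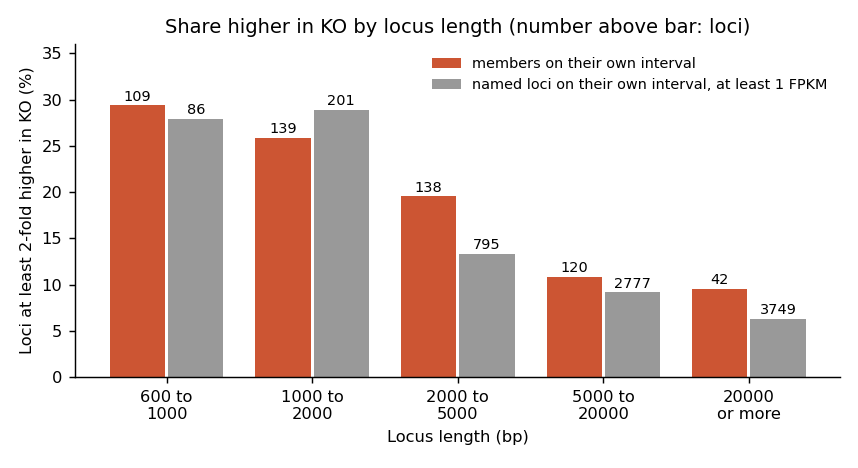
Share of loci (%) whose group value was at least 2-fold higher in 14-3-3ζKO (KO) than in WT tissue, by locus length in bp, for unnamed loci with an interval of their own (red) and named loci with an interval of their own (grey). Numbers above the bars are loci; the red bars fall from 29.4% to 9.52% with length and the grey bars from 27.9% to 6.32%.

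Among the 8 loci with the largest positive differences between group values, XLOC_007072 on chromosome 11 was listed at 0 in WT and at 25.8 FPKM in 14-3-3ζKO tissue. It lies 8686 bp before Cbx2, a Polycomb protein, which itself had 0.994 FPKM in WT tissue. XLOC_029799 on chromosome 5 read 0.192 and 9.77 FPKM and ended 316 bp before Rhbdd2, a rhomboid family protein that read 8.22 and 9.30 FPKM. XLOC_037217 on chromosome 8 read 0.756 and 12.5 FPKM, and the RefSeq start of the long non-coding RNA Gm19935 lay 7 bp outside its end, directed into it. The same 8 included XLOC_024656 and XLOC_014977, whose group values were set by 14-3-3ζKO replicate 1. The remaining 3 shared intervals with named rows whose strongest row was under 2-fold apart between the groups. XLOC_012224, at 0.692 and 12.7 FPKM, shared an interval with Arhgef3, which read 11.8 and 8.66 FPKM. XLOC_035680, at 0.184 and 9.55 FPKM, lay with Zfp607, a zinc finger gene at 1.31 and 0.972 FPKM. XLOC_016836, at 0.851 and 17.2 FPKM, was 1 of 20 rows on an interval of 416070 bp, whose strongest named row, Cul7 with Mrpl2, read 42.4 and 62.5 FPKM.

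Of the 8 loci with the largest negative differences, XLOC_037858 on chromosome 9 read 6.69 FPKM in WT and 0.447 FPKM in 14-3-3ζKO tissue. It shared its interval with Slc37a2, a sugar-phosphate exchanger known from macrophages, which read 30.2 and 2.13 FPKM, in the direction of the macrophage markers above. XLOC_040533 on chromosome X, the locus of Gm4988, read 8.65 and 0.951 FPKM. On chromosome 12, XLOC_007797 read 62.5 and 18.3 FPKM and began 56 bp after the RefSeq start of the long non-coding RNA Gm19951. XLOC_002329 on chromosome 1, 14171 bp from Fcrla, a gene of B cells, read 2.67 and 0.110 FPKM, opposite to the B cell markers. XLOC_020440 on chromosome 2 began 12 bp after the RefSeq start of the long non-coding RNA Gm34181 and read 2.99 and 0.317 FPKM. The other 3, XLOC_012492, XLOC_023642 and XLOC_001738, read between 2.75 and 3.38 FPKM in WT and between 0.175 and 0.501 FPKM in 14-3-3ζKO tissue.

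The 2 most abundant loci were both lower in 14-3-3ζKO tissue. XLOC_005387 (1809 bp, 1869 bp past the end of Ppy, the gene of pancreatic polypeptide) read 1536 and 786 FPKM, a ratio of 0.512, whereas Ppy read 15.7 and 9.71 FPKM. Neither a RefSeq start nor a coding transcript matched it. The 5 epididymal markers had lower values in the same direction, Crisp1 at 467 and 201 FPKM and Lcn8 at 2136 and 1108 FPKM. So had the 6 macrophage markers, which summed to 834 and 108.5 FPKM. Whether any cell type bears on XLOC_005387 was not tested. XLOC_032275 (838 bp on chromosome 6) read 1509 and 981 FPKM. Over 834 bases it matched chromosome 17 from 39983626 to 39984459 at 98.3% identity, inside the locus AY036118, which read 4319 and 1723 FPKM. RefSeq, on build GRCm38.p6, lists Rn18s-rs5, an 18S ribosomal RNA related sequence, as the neighbour of AY036118. Reads of near-identical sequence can be split between the copies, so the values of XLOC_032275 are uncertain.

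XLOC_042597 on chromosome X (23.9 and 93.4 FPKM) was the third by mean group value and lay with 4 other unnamed rows on 26389 bp, 2724 bp from the pseudogene Gm15196, which had 1.08 and 1.10 FPKM. XLOC_008581 on chromosome 12 (16.4 and 34.3 FPKM) lies at the immunoglobulin heavy-chain constant genes, 6164 bp from the row of Ighe. In that cluster Ighm read 870 and 1960 FPKM and Ighg3 3.12 and 77.7 FPKM, in the direction of the B cell markers, whereas Ighg2c read 8.85 and 7.63 FPKM. XLOC_020605 on chromosome 2 (30.3 and 23.8 FPKM) shared its interval with the non-coding 2900097C17Rik (11.9 and 9.02 FPKM).

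Expressed unnamed loci lay within 1 kb of a gene more often than the weaker ones. Of the 548, 100 (18.2%) ended or began within 1 kb upstream of the nearest annotated gene and 18 (3.28%) within 1 kb downstream. The shares were 12.0% and 0.821% of the 3655 unnamed loci of 600 bp or longer under 1 FPKM. Of the 100, 97 faced a protein-coding gene, the median gap was 188 bp, and 54 lay within 200 bp. At 1 to 5 kb, 51 (9.31%) lay upstream and 83 (15.1%) downstream, against 14.8% and 13.4% of the weaker loci, so the upstream share was the smaller one there. The remaining 296 lay farther than 5 kb from any annotated gene. All 120 loci whose interval overlapped an annotated gene shared that interval with other rows.

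Loci just upstream of genes had CpG-rich ends. In the 300 bases nearest the gene, the ratio of observed to expected CpG was above 0.6 in 67 of the 100, with a median of 0.72 and a median GC content of 59.2%. At the opposite end of the same loci the ratio was above 0.6 in 15, with a median of 0.29. The ratio at the gene-facing end exceeded 0.6 in 42.1% of the 439 loci at the same position that stayed under 1 FPKM, and in 7.09% of the 296 expressed loci farther than 5 kb away. The end of XLOC_014977 printed above, at 0.83 over 300 bases, is an example.

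**Figure D5:**
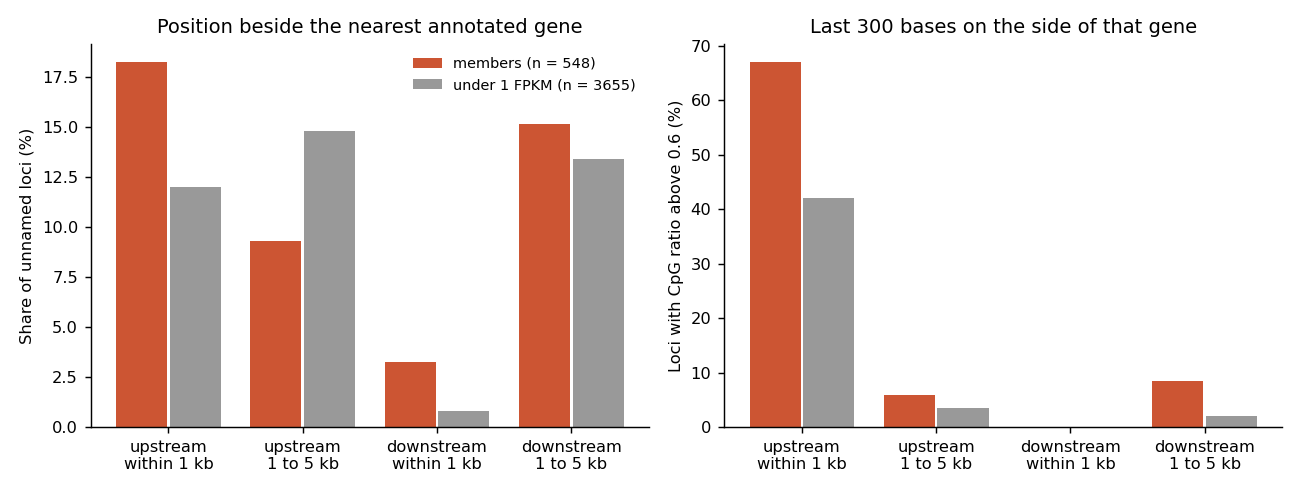
Left, share (%) of unnamed loci of 600 bp or longer with an interval of their own by position beside the nearest annotated gene, for loci with at least 1 FPKM (red, n = 548) and under 1 FPKM (grey, n = 3655). Right, share (%) of the loci in each position whose 300 bases nearest the gene have a CpG ratio above 0.6; 67 of 100 expressed loci within 1 kb upstream pass and 0 of 18 within 1 kb downstream do.

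The genes next to these loci moved less than the loci. For the 95 upstream loci within 1 kb whose neighbour reached 1 FPKM, 14 of the loci and 2 of the neighbours were at least 2-fold higher in 14-3-3ζKO tissue, and the medians were 0.33 and 0.04 on the log2 scale. Of all loci with at least 1 FPKM, 10.5% were at least 2-fold higher. Only 5 of the 95 loci had a higher mean group value than their neighbour, so mostly weaker loci were set against stronger genes. Across these 95 pairs Pearson's r was 0.28 and Spearman's rank correlation 0.42, a description over loci that share libraries. For example, XLOC_003208 read 3.66 and 12.3 FPKM, 79 bp before Cnksr3, a scaffold protein of epithelial sodium transport at 4.57 and 5.83 FPKM. XLOC_022787 read 0.263 and 2.62 FPKM, 112 bp before Hipk3, a protein kinase at 28.8 and 34.4 FPKM. These examples were chosen after their values were seen.

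Later annotation placed a gene start at some of the loci. A RefSeq promoter (300 bases, GRCm38.p6) was found without a mismatch on the same chromosome, with its start inside the locus or up to 100 bases before it and directed into it, for 137 of the 548 (25%), against 7.91% of the unnamed loci under 1 FPKM. A start far inside was counted too, such as 3353 bp into the 3398 bp of XLOC_002329, so a match does not always name the locus. Longer loci have more room for a start, and the shares were not adjusted for length. Of the matched genes, 117 were long non-coding RNAs and 20 protein coding. Loci with a RefSeq start were longer, at a median of 5788 bp against 1829 bp, and 19 of 137 (13.9%) were at least 2-fold higher in 14-3-3ζKO tissue, against 93 of 411 (22.6%) of those without. Of the 25 matched loci within 1 kb upstream of a gene, 21 had their RefSeq gene on the opposite strand to it. This is the strand of the annotation, since that of the transcripts was not recorded. The RefSeq genes on the opposite strand included A730063M14Rik (XLOC_003122, 6.63 and 9.20 FPKM, 191 bp from Tspan31), Gm38872 (XLOC_031917, 2.43 and 5.92 FPKM, 174 bp from Itpr1, the receptor that releases calcium from the endoplasmic reticulum) and 2610016A17Rik (XLOC_018707, 13.6 and 9.84 FPKM, 138 bp from Dmrt2). Chaserr, a long non-coding RNA known to restrain its neighbour Chd2, corresponded to XLOC_034890, which read 14.9 and 26.2 FPKM beside 9.82 and 12.8 FPKM for Chd2. Among the protein-coding genes found by their RefSeq start, Smim22 (XLOC_013804) read 13.2 and 14.1 FPKM and Ms4a4a (XLOC_018085) 10.8 and 12.4 FPKM.

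The cleavage signal was more frequent at the ends of the expressed loci than of the weaker ones. AATAAA lay within 50 bases of an end and read towards that end, on either strand, in 142 of the 548 (25.9%), against 11.8% of the 3655 loci under 1 FPKM. Read in the opposite sense, away from the end, the same 6 letters were found in 37 (6.75%) and 5.53%. Loci with the signal read towards an end were at least 2-fold higher in 14-3-3ζKO tissue in 16.2% of cases and those without it in 21.9%. A coding transcript matched 56 of the 548 over at least 200 bases at 95% identity or more, most often that of the predicted gene Gm17646 (9 loci). XLOC_024656 matched Intu, a gene of cilium formation, over 389 of its 4505 bases at 95.4% identity, so most of it had no such match. Loci with a coding match were longer, at a median of 13452 bp against 2093.5 bp, and the counts were not adjusted for length.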

How the data were processed

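The authors aligned reads with TopHat2 2.0.11 to NCBIM37 and assembled and compared transcripts with Cufflinks 2.2.0 and Cuffdiff, per the labels and the study's methods. Values are in FPKM as the authors deposited them: a group table (42815 loci, 1 value each for WT and 14-3-3ζKO) and a per-library table limited to 86 loci, all of which the authors had marked as different. Their fold, statistic, p and q columns were not used. The study's methods give a nominal number of paired-end reads, but totals for each library and the scaling between libraries were not found in the sources used, so no counting interval is given.

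The unnamed loci and the lists were chosen with earlier results of these data known. Differences are log2((14-3-3ζKO + 1) / (WT + 1)), which understates low loci. Libraries were grouped by title, and per-library values were compared by an exact permutation test with Benjamini-Hochberg adjustment over 86 rows, with limma 3.58.1 (R 4.3.3) as an alternative. The permutation script was tested on simulated data.

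Positions are 1-based, on NCBIM37, beside the 37310 genes of GENCODE release M1 of that build. RefSeq promoters of GRCm38.p6 were placed by an exact match of 300 bases on the same chromosome, and none of that table's coordinates was used. Copies were found with BLAST+ 2.17.0. Values were handled with python 3.11.15, numpy 2.4.6, pandas 2.3.3, scipy 1.17.1 and pysam 0.24.0, and plots drawn with matplotlib 3.10.9. Named loci were those with values per library, the 10 highest means, the 8 largest differences in each direction, the 3 longest and those nearest the limits; others were named after their values were seen. The shared sequence was found after the data were seen. Repeat content and open reading frames were not computed, because the genome sequence marks no repeats and the splicing of the loci is not in the files used.

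Alternatives were a pseudocount of 0.1, limits of 2 FPKM and 1000 bp, recentring, a fold of 3, other distances, loci overlapping no annotated gene, each library left out, WT replicates 1, 3 and 4 left out, limma, and a replicate block.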

Additional observations from a re-analysis of the deposited data

Results flagged for a closer look

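In 4 of the 10 groups of libraries examined, the highest library lay apart from the rest by most of the range of its group, by Dixon's criterion at 95%. The criterion assumes normally distributed values and was applied to FPKM without a log, at loci chosen with these same libraries. The flags are therefore a description, with no chance rate attached. XLOC_010443 stood at 32.5 FPKM in WT replicate 4, with 11.6 FPKM in the next WT library. XLOC_013690 stood at 174 FPKM in 14-3-3ζKO replicate 1, with 45.4 FPKM in the next 14-3-3ζKO library. In the same library XLOC_014977 stood at 73.4 FPKM, with 1.90 FPKM in the next, and XLOC_024656 at 71.1 FPKM, with 3.24 FPKM in the next. 14-3-3ζKO replicate 1 thus accounted for 3 of the 4, and the part of its cell composition in these values was not tested.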

How the results depend on the processing

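The number of loci was 674 at a minimum of 1000 bp and 336 at a minimum of 2 FPKM, from 783. Those at least 2-fold higher in 14-3-3ζKO tissue numbered 310 with a pseudocount of 0.1, 106 at 2 FPKM and 57 at a fold of 3, from 168, and those lower 64 with a pseudocount of 0.1 and 7 at a fold of 3, from 18. Higher loci outnumbered lower ones under each of these settings. After recentring by 0.05, the median of all expressed loci, the counts were 150 and 24. Intergenic loci of either interval kind within 5 kb of a gene numbered 284, and 137 within 1 kb. The median difference was 0.57 with a pseudocount of 0.1 and 0.30 for the 663 loci overlapping no annotated gene. Further checks, and the shares with a pseudocount of 0.1 by length and for all loci, were added after the data were seen: with own-interval loci alone the counts were 112 and 13, and without the 24 shared-sequence loci 157 and 18. Leaving out each library in turn, the per-library difference ranged from 2.28 to 2.96 for XLOC_010443, 1.83 to 2.74 for XLOC_013690, 1.60 to 2.03 for XLOC_022771, 1.15 to 2.55 for XLOC_024656 and -0.19 to 1.25 for XLOC_014977, whose direction turned without 14-3-3ζKO replicate 1. For the 3 called loci the adjusted p of the exact permutation test rose above 0.05 in 6, 5 and 6 of the 11 settings and reached at most 0.0738, with fewer relabellings available than for all 11 libraries. Without WT replicates 1, 3 and 4, which held more macrophage RNA, the differences of XLOC_010443, XLOC_013690, XLOC_022771 and XLOC_024656 were 2.71, 2.80, 1.85 and 2.18, with adjusted p of 0.118, 0.181 and 0.118 for the first 3. With limma the same 3 loci were called, at adjusted p of 0.0123, 0.0155 and 0.0162. Over the 86 rows, libraries of the same replicate number were not regularly the most alike (correlation of deviations from -0.49 to 0.57 over 5 numbers, own number highest at 1 of 5). These rows were all marked as different between the groups, so they cannot settle whether littermates were paired. Limma with the replicate number as a block called the same 3 loci, at differences of 2.57, 2.05 and 1.67. Mapped totals for each library were not used, so values near 1 FPKM in short loci cannot be given a counting error.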

Other observations

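Further unnamed loci have a later RefSeq name. These were chosen after their values were seen, and no relation was tested. XLOC_000350 on chromosome 1 (1700027A15Rik, a long non-coding RNA) read 2.01 FPKM in WT and 10.8 FPKM in 14-3-3ζKO tissue, 8602 bp before Tnp1, which encodes a transition protein of spermatids and read 5.79 and 145 FPKM. XLOC_038781 on chromosome 9 (Gm3428) read 13.9 and 7.99 FPKM, 3734 bp before 9230110F15Rik, which read 265 and 167 FPKM. XLOC_029893 on chromosome 5 (Rbakdn) read 0.769 and 9.12 FPKM, 6357 bp past Rbak, a zinc finger repressor at 3.01 and 5.08 FPKM. XLOC_034904 on chromosome 7 (AU020206) read 14.7 and 27.0 FPKM, with no expressed annotated gene as its nearest neighbour.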
